A study of Mus musculus with 35 samples.

Results

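Gfap, Vim, Nes and Synm encode the intermediate filament proteins of astroglia, and they were followed here as 4 genes with 17 annotated transcripts among the 54119 genes and 139852 transcripts measured in 35 RNA-seq libraries. The genes were chosen by name, and every transcript that the annotation assigns to them was taken. The libraries came from male C57BL/6JRj mice, from brain cells caught on magnetic beads by ACSA2, the product of Atp1b2 on the astrocyte surface. The mice received a high-fat high-sugar diet (HFHS, 58%) or standard chow (SC) from an age of 8 to 9 weeks for 4 months. Each replicate pooled 2 mice. The groups were hypothalamus HFHS (n = 5), hypothalamus SC (n = 6), hippocampus HFHS (n = 7), hippocampus SC (n = 5), cortex HFHS (n = 6) and cortex SC (n = 6), all of one strain and sex and with no transgene named in the labels. Cortex cells were separated on LS columns with larger volumes and the cells of the other regions on MS columns, so column and region cannot be told apart in any comparison with cortex.

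Intermediate filaments are ropes of coiled-coil proteins that run through the cytoplasm and give cells mechanical strength. Gfap is the main filament protein of mature astrocytes and the classical marker of astrocyte reactivity. Vim, vimentin, can form filaments by itself and is shared with endothelial, ependymal and many other cells. Nes, nestin, and Synm, synemin, do not form filaments alone and join those of the other proteins. Nestin is best known from neural progenitors and is also made by growing vessels and by tanycytes, the radial glia of the hypothalamic ventricle wall. Synemin binds filaments to the cytoskeleton at the membrane.

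Gfap lies on chromosome 11 (GRCm38, minus strand), and its main product, alpha, differs from the delta form only in the end of the protein. The alpha transcript, Gfap-201, spans positions 102887336 to 102897131 with 9 exons and 430 codons. The delta transcript, Gfap-202, spans positions 102890166 to 102897200 with 8 exons and 428 codons, and it stops in an exon of its own within an alpha intron. Delta is known to assemble poorly alone and to bind presenilins, and in the human brain it is known from astrocytes of the neurogenic zone below the ventricle wall. The coding end that only delta has is shown here, since it marks that form, in 5′ to 3′ direction from the GENCODE mouse release M21 transcripts, with the stop codon in capitals. It is 125 bases long, at chr11:102891396-102891520.
Gfap delta end: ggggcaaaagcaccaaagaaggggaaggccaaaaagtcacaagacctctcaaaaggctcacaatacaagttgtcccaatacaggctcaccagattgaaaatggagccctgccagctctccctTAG
Of the 2648 bases of the alpha transcript 1472 (55.6%) are absent from delta, and of the 2600 bases of delta 1424 (54.8%) are absent from alpha. Many reads can therefore be assigned to one form, while 1176 bases are shared by both. Gfap as a whole had 3045 to 47796 estimated counts per library, and the delta transcript averaged 3202.

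**Figure D1:**
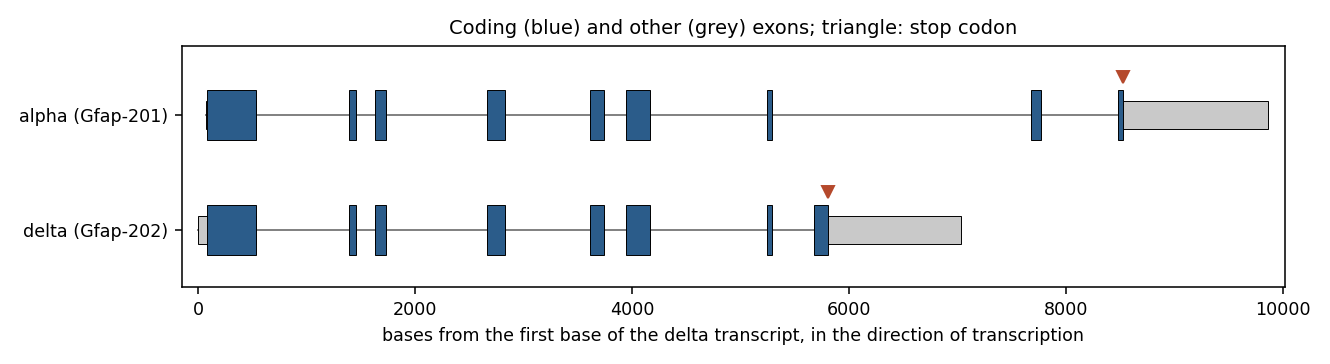
Exon maps of the 2 coding Gfap transcripts, drawn to scale in bases from the first base of the delta transcript. Blue boxes are coding exons, grey boxes other exon sequence and triangles stop codons, and the 2 forms share their first 7 coding exons.

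Nes has 2 coding transcripts that are much harder to separate. Nes-201 (chr3:87971093-87980451, plus strand, 6126 bases) holds every base of Nes-203 (5958 bases) and 168 more, 2.74% of its length. The shorter form lacks 132 coding bases inside the long last exon, at chr3:87976581-87976712, and only reads over that stretch or at the transcript start tell the forms apart. The stretch is shown since it holds most of the bases that tell Nes-201 from Nes-203, and its capitals mark the first and last 2 bases, GT and AG, the letters at which most introns are cut.
Nes segment: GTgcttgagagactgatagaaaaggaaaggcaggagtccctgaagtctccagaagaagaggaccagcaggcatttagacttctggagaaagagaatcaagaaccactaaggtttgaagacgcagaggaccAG
Vim (Vim-201 at chr2:13573952-13582826, plus strand) has 1 dominant coding transcript, and Synm (Synm-201 at chr7:67730168-67759742, minus strand) is spread over 5 coding transcripts.

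The libraries held between 47578560 and 65982495 estimated counts. All 18 astrocyte markers were detected in every group, and their summed TPM (a level per transcript length, scaled to the same total in each library) had medians of 6520 in hypothalamus HFHS, 4910 in hypothalamus SC, 3780 in hippocampus HFHS, 3310 in hippocampus SC, 20700 in cortex HFHS and 19200 in cortex SC. The summed TPM of 10 oligodendrocyte markers was higher than that, with medians of 72400, 75600, 67900, 69000, 34800 and 29700 in the same order of groups, and it exceeded the astrocyte sum in 31 of 35 libraries. The cells are therefore called ACSA2-sorted fractions here. No marker of the 11 other cell type lists was at 0 throughout a group. Some libraries stood apart in their makeup. Hypothalamus HFHS 2 had an astrocyte sum of 19300, and the other 4 of its group 5000 to 6680. In choroid plexus markers, hippocampus SC 3 had a sum of 135, against 5630 to 33400 in the others of its group, and hypothalamus SC 3 had 1060, against 69.6 to 151. Leaving out hippocampus SC 3 or hypothalamus SC 3 moved no value of a member across the threshold. In hypothalamus HFHS the choroid sum was 71.7, 79.8, 4180, 2160 and 866 in replicates 1 to 5. Leaving out hypothalamus HFHS 3, the highest of these, did move values across the threshold. They were the Synm difference from cortex on HFHS and the Nes-201 share between diets, as given below. The mean transcript length of the reads was 2179 bases in cortex HFHS 6 and 1922 in cortex SC 6, and 2483 to 2985 in the other 33 libraries. The lowest of those, hypothalamus SC 6 at 2483 bases, had neighbours at 2530 and 2560 and hardly stood apart. It was set aside with both cortex libraries, as the 3 libraries of short transcripts, because an earlier analysis of these data had grouped them, with no stated limit on length. In fractions of mixed makeup, fewer cells of a type and less RNA per cell cannot be told apart.

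Gfap had the highest mean level of the 4 genes in cortex and hippocampus, and its own mean was lowest in hypothalamus on both diets. On SC, hypothalamus had 35.3 to 94.5 TPM with a median of 87.0, the 5 hippocampus libraries had 119, 515, 174, 372 and 183 TPM, and cortex had 26.1 to 395 TPM with a median of 222. Every hypothalamus SC library lay below every hippocampus SC library, while the ranges of hypothalamus and cortex met only through cortex SC 6, the library at 26.1 TPM. On HFHS, the 5 hypothalamus libraries had 54.0, 206, 88.2, 174 and 128 TPM, hippocampus had 53.3 to 400 TPM with a median of 131, and cortex had 54.5 to 247 TPM with a median of 210. All of these groups overlapped. The group means on SC were 78.1 ± 22.6 TPM (SD, n = 6) in hypothalamus, 273 ± 166 TPM (n = 5) in hippocampus and 231 ± 133 TPM (n = 6) in cortex.

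Tested over all genes with edgeR's quasi-likelihood test, Gfap was lower in hypothalamus than in hippocampus on SC (log2 fold change -1.84 ± 0.47 SE, a level 0.279 times that of hippocampus, adjusted p = 0.0101). It was also lower in hypothalamus than in cortex on SC (-1.95 ± 0.45, adjusted p = 0.00102). Hippocampus and cortex, the neighbours at the top of the order, did not differ beyond their spread, with values of -0.11 ± 0.46 on SC (adjusted p = 0.879) and 0.02 ± 0.42 on HFHS (adjusted p = 0.984). On HFHS, the values were -0.75 ± 0.45 for hypothalamus against hippocampus (adjusted p = 0.368) and -0.73 ± 0.47 for hypothalamus against cortex (adjusted p = 0.276), and neither passed the threshold of 0.05. The difference from hippocampus no longer passed without hippocampus SC 2, the library at 515 TPM (-1.48, adjusted p = 0.0532). The difference from cortex did not pass on the log2(TPM + 1) scale (-1.24, adjusted p = 0.0639), on which the median of all genes was itself shifted by 0.30.

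Vim had another regional order than Gfap, with its highest mean in hypothalamus on both diets. On HFHS, the 5 hypothalamus libraries had 157, 95.6, 174, 231 and 198 TPM, hippocampus had 51.8 to 156 TPM with a median of 90.8, and cortex had 21.3 to 59.2 TPM with a median of 48.9. Hypothalamus and cortex did not overlap on HFHS. On SC, hypothalamus had 137 to 223 TPM with a median of 176, the 5 hippocampus libraries had 69.7, 57.5, 115, 81.5 and 105 TPM, and cortex had 15.9 to 168 TPM with a median of 52.2. Here hypothalamus and hippocampus did not overlap, and only cortex SC 4, at 168 TPM, reached the hypothalamus range.

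Between hypothalamus and cortex, Vim was 3.46-fold higher on HFHS (log2 fold change 1.79 ± 0.35 SE, edgeR adjusted p = 0.00019) and 2.03-fold higher on SC (1.02 ± 0.33, adjusted p = 0.0144). The SC value was 0.79 without the 3 libraries of short transcripts (adjusted p = 0.0838), 0.93 without hypothalamus SC 6 alone (adjusted p = 0.0330), 0.91 without cortex SC 6 alone (adjusted p = 0.0392) and 1.79 on the log2(TPM + 1) scale. Hippocampus was higher than cortex on HFHS (1.01 ± 0.32, adjusted p = 0.0190), but not without hippocampus HFHS 3, the library with the highest Vim of its group (0.82, adjusted p = 0.0629). On SC, hippocampus and cortex did not differ beyond their spread (0.04 ± 0.34, adjusted p = 0.941). Hypothalamus and hippocampus, which did not overlap in TPM on SC, differed by 0.98 ± 0.35 there (adjusted p = 0.0665) and by 0.78 ± 0.33 on HFHS (adjusted p = 0.161).

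Which of Gfap and Vim was the more abundant filament transcript differed between the regions in most libraries. Vim exceeded Gfap in TPM in 4 of 5 hypothalamus HFHS and 6 of 6 hypothalamus SC libraries. It did so in 2 of 7 hippocampus HFHS libraries and in 0 of 5 hippocampus SC, 0 of 6 cortex HFHS and 0 of 6 cortex SC libraries. The ratio of Vim to Gfap lay between 1.88 and 3.88 in hypothalamus SC and between 0.0807 and 0.796 in cortex SC. The exception in hypothalamus was HFHS 2, with the astrocyte sum of 19300. Those in hippocampus were HFHS 3 and 4, with astrocyte sums of 2000 and 2570 and sums of ependymal markers of 4340 and 2760. Hippocampus HFHS 1 (2160 and 785) and hippocampus SC 3 (1990 and 2070) had more Gfap than Vim. The part of library makeup in this order was not tested. Both levels are per transcript length, and the count of libraries is a description with no test.

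**Figure D2:**
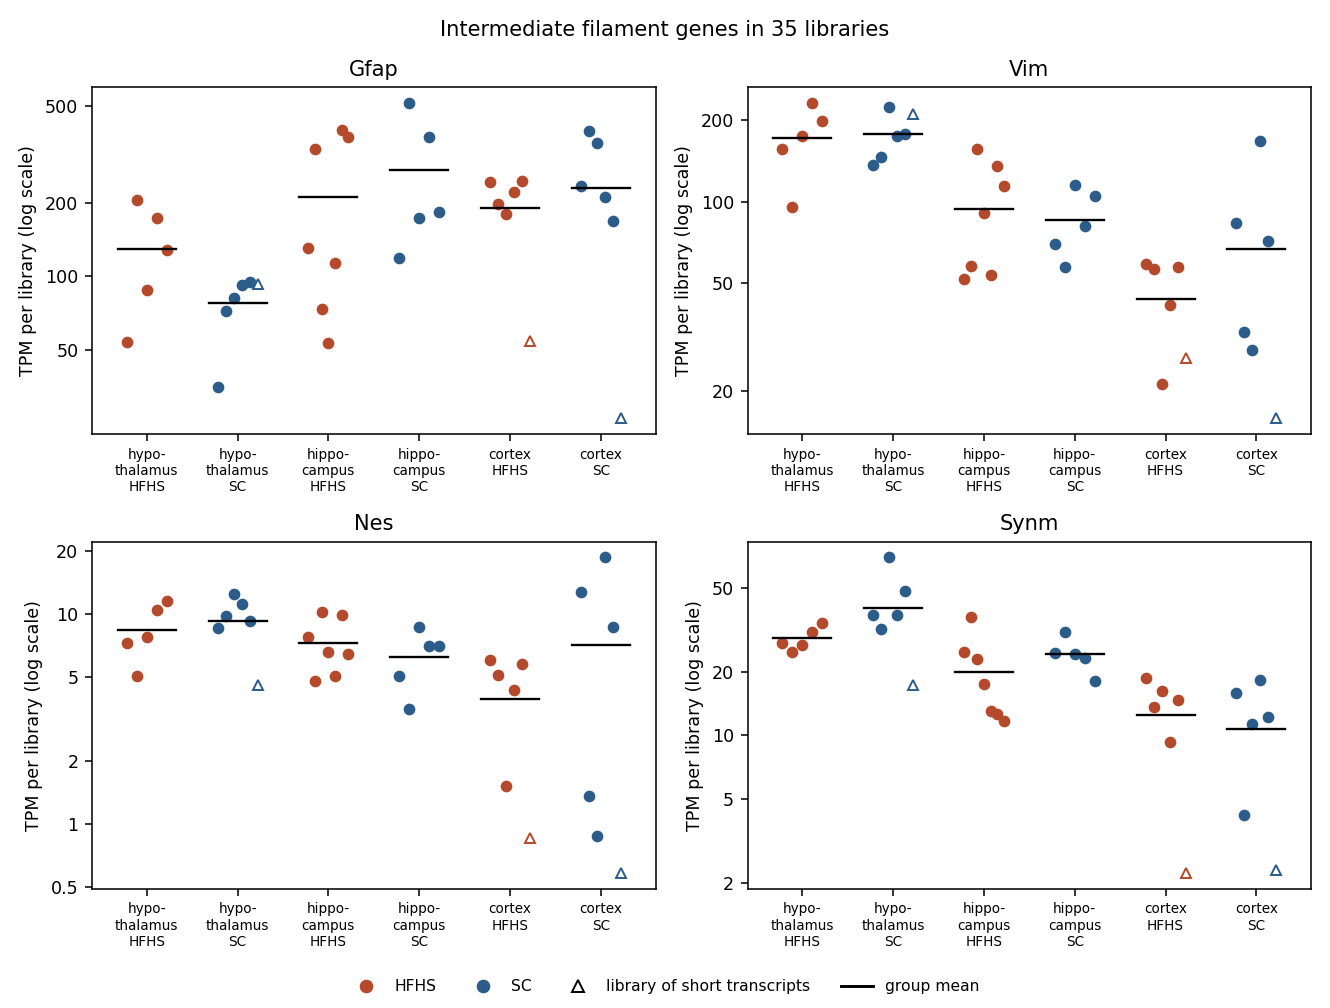
TPM of Gfap, Vim, Nes and Synm in each of the 35 libraries (log scale) by region and diet, with the group mean as a line and the 3 libraries of short transcripts as open triangles. Gfap is lowest in hypothalamus SC at a mean of 78.1 TPM, and Vim is highest in the hypothalamus groups at means of 171 TPM on HFHS and 178 TPM on SC.

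Synm had the same order of group means as Vim, with hypothalamus above hippocampus and hippocampus above cortex on both diets. On HFHS, the 5 hypothalamus libraries had 27.5, 24.9, 26.8, 31.0 and 34.2 TPM, hippocampus had 11.7 to 36.5 TPM with a median of 17.5, and cortex had 2.23 to 18.8 TPM with a median of 14.2. Hypothalamus was above cortex in every library on HFHS. On SC, hypothalamus had 17.3 to 69.8 TPM with a median of 37.1, the 5 hippocampus libraries had 24.5, 30.9, 24.3, 23.2 and 18.2 TPM, and cortex had 2.30 to 18.3 TPM with a median of 11.7. The hypothalamus range on SC touched that of cortex only through hypothalamus SC 6, one of the libraries of short transcripts, at 17.3 TPM.

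Synm was 3.16-fold higher in hypothalamus than in cortex on SC (log2 fold change 1.66 ± 0.30 SE, edgeR adjusted p = 4.79e-05) and also higher on HFHS (0.96 ± 0.30, adjusted p = 0.0196). Hippocampus was higher than cortex on SC (1.04 ± 0.30, adjusted p = 0.0100), and the HFHS value of 0.57 ± 0.28 did not pass (adjusted p = 0.146). The HFHS difference between hypothalamus and cortex no longer passed without hypothalamus HFHS 3 (0.81, adjusted p = 0.0702). Hypothalamus and hippocampus differed by 0.63 ± 0.31 on SC (adjusted p = 0.215) and by 0.39 ± 0.29 on HFHS (adjusted p = 0.496).

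Nes was the least abundant of the 4, and no comparison of its level passed the threshold. Its mean level was 8.41 ± 2.58 TPM in hypothalamus HFHS, 9.29 ± 2.68 in hypothalamus SC, 7.24 ± 2.14 in hippocampus HFHS, 6.27 ± 2.00 in hippocampus SC, 3.93 ± 2.21 in cortex HFHS and 7.13 ± 7.49 in cortex SC. The cortex SC libraries ran from 0.582 to 18.6 TPM, a wider range than that of any other group. Log2 fold changes between regions lay between -0.22 ± 0.45 for hippocampus against cortex on SC (edgeR adjusted p = 0.744) and 0.61 ± 0.45 for hypothalamus against cortex on HFHS (adjusted p = 0.354).

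Within cortex, Nes and Vim were high in the libraries in which endothelial, microglial and neuronal markers were high. In cortex HFHS 1, 2, 4 and 5 the summed TPM of 10 endothelial markers was 1370 to 1880, with 4.36 to 6.00 TPM of Nes and 41.6 to 59.2 TPM of Vim. In cortex HFHS 3 and 6 the endothelial sum was 272 and 354, with 1.51 and 0.856 TPM of Nes and 21.3 and 26.5 TPM of Vim. In cortex SC 1, 4 and 5 the endothelial sum was 2280, 5410 and 2080, with 12.7, 18.6 and 8.68 TPM of Nes and 83.5, 168 and 71.5 TPM of Vim. In cortex SC 2, 3 and 6 it was 278, 180 and 236, with 1.35, 0.870 and 0.582 TPM of Nes and 33, 28.4 and 15.9 TPM of Vim. The sum of 9 microglia markers split the same libraries, at 920 to 1460 in the high and 413 to 471 in the low ones on HFHS, and at 991 to 1300 in the high and 143 to 266 in the low ones on SC. The sum of 9 neuron markers did so too, at 271 to 421 and 118 to 124 on HFHS, and at 353 to 477 and 105 to 234 on SC. On SC, the 10 markers of mural cells, which wrap vessels, were at 563 to 1110 in the high and 122 to 256 in the low libraries. On HFHS the mural sum was 435 to 515 in the high ones, and 430 and 135 in cortex HFHS 3 and 6, so it hardly set cortex HFHS 3 apart. Cortex HFHS 6 and cortex SC 6, both among the low libraries, were also libraries of short transcripts. The part of any of these cells in the levels of both genes was not tested.

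The number of regional calls among the 4 members is given beside the share of all genes called. On SC, 3 of 4 passed between hypothalamus and cortex, where 36.1% of the 21574 genes tested passed. Between hippocampus and cortex 1 of 4 passed, against 30.8% of all genes, and between hypothalamus and hippocampus 1 of 4, against 10% of all genes. On HFHS, 2 of 4 passed between hypothalamus and cortex (23.9% of all genes), 1 of 4 between hippocampus and cortex (24.2%) and 0 of 4 between hypothalamus and hippocampus (6.42%). In the last of these comparisons 1 member, Vim, had an unadjusted p under 0.05, as had 4403 of the 21574 genes tested. In TPM, 2 of 4 members did not overlap between hypothalamus and hippocampus on SC (9.6% of all genes) and 2 of 4 between hypothalamus and cortex on HFHS (13.9%). The count was 0 of 4 between hypothalamus and cortex on SC (18.8%), hippocampus and cortex on SC (19.5%) and on HFHS (6.17%), and hypothalamus and hippocampus on HFHS (5.34%). Between diets it was 0 of 4 in hypothalamus (0.597%), hippocampus (0.441%) and cortex (0.476%).

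The diet changed no member past the threshold in any region. HFHS against SC gave 0 of 4 calls in hypothalamus, 0 of 4 in hippocampus and 0 of 4 in cortex with edgeR, where 0% of all genes passed in each region, and DESeq2 gave 0 calls among the members too. At an unadjusted p under 0.05 there was 1 of 12. That was the value of Gfap in hypothalamus, with 130 ± 61.6 TPM (n = 5) on HFHS and 78.1 ± 22.6 TPM (n = 6) on SC (log2 fold change 0.81 ± 0.33, unadjusted p = 0.0279, adjusted p = 0.541). That group held the library with the high astrocyte sum, and without hypothalamus HFHS 2 the value was 0.54 (adjusted p = 0.786). Of all 19272 genes tested there, 1639 had an unadjusted p under 0.05. In hippocampus, Gfap had 211 ± 151 TPM on HFHS and 273 ± 166 TPM on SC (-0.31 ± 0.52, adjusted p = 0.929), and in cortex 191 ± 71.7 TPM on HFHS and 231 ± 133 TPM on SC (-0.36 ± 0.36, adjusted p = 0.858).

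The other members had no diet difference past the threshold either. Vim was at 171 ± 50.5 TPM on HFHS and 178 ± 34.0 TPM on SC in hypothalamus, with a log2 fold change of -0.01 ± 0.20 (edgeR adjusted p = 0.998). Its largest diet difference was in cortex, with 43.8 ± 16.7 TPM on HFHS and 66.7 ± 56.0 TPM on SC (-0.75 ± 0.41, adjusted p = 0.645). Synm was at 28.9 ± 3.70 TPM on HFHS and 40.2 ± 17.6 TPM on SC in hypothalamus (-0.30 ± 0.22, adjusted p = 0.771). The diet effects on Nes were -0.19 ± 0.20 in hypothalamus, 0.30 ± 0.24 in hippocampus and -0.40 ± 0.63 in cortex, with adjusted p of 0.869, 0.888 and 0.916.

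Whether the diet effect differed between regions was tested directly, as an interaction over all 6 groups, and 0 of 4 members passed in each of the 3 pairs of regions, where 0% of the 21574 genes passed. The diet effect on Gfap was higher in hypothalamus than in cortex by 1.22 ± 0.64 on the log2 scale (edgeR unadjusted p = 0.0636, adjusted p = 0.458). The median of the 18 astrocyte markers in that interaction was 1.11. For the log2 ratio of Gfap to these markers it was 0.16 (exact permutation test, adjusted p = 0.800). Of the 12 interaction values, 1 had an unadjusted p under 0.05, that of Vim for hippocampus against cortex, where 2007 of the 21574 genes had one. DESeq2 gave 0 calls too.

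**Figure D3:**
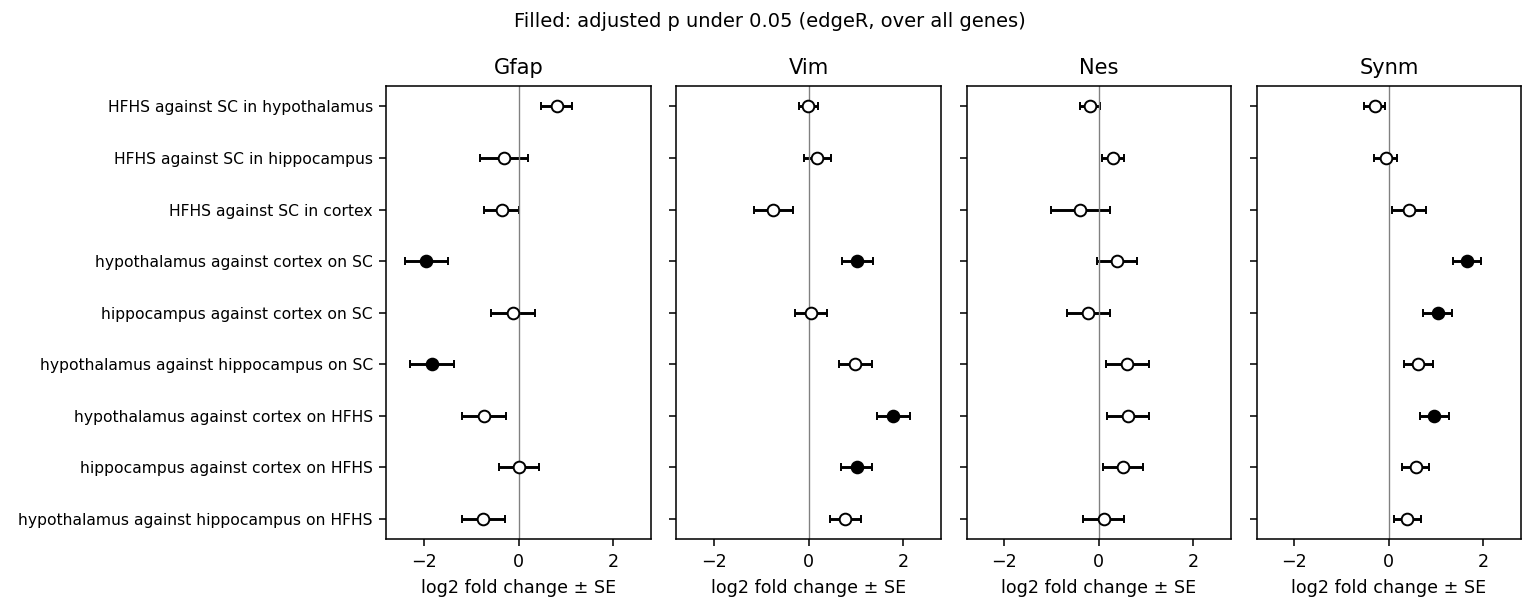
Log2 fold changes (± SE) of the 4 genes in the 3 diet and 6 region comparisons, with the first named group over the second. Filled points passed an adjusted p of 0.05 over all genes in edgeR, and all 12 points of the diet comparisons are open.

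Set against the other astrocyte genes of the same library, the regional picture of Gfap was different. For each library the TPM of a member was divided by the geometric mean TPM of the 18 astrocyte markers and taken on the log2 scale, so that 0 means the level of the average astrocyte marker. Gfap lay above that level in hippocampus, at 0.57 ± 0.52 on HFHS (SD, n = 7) and 1.07 ± 0.50 on SC (n = 5). It lay below it in the other regions, at -1.003 ± 0.67 in hypothalamus HFHS, -1.11 ± 0.61 in hypothalamus SC, -1.48 ± 0.51 in cortex HFHS and -1.42 ± 0.76 in cortex SC. Hippocampus did not overlap with either region on either diet.

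Relative to astrocyte markers, Gfap was higher in hippocampus than in cortex by 2.05 on HFHS and 2.49 on SC (exact two-sided permutation tests, adjusted p = 0.00699 each), a ratio 4.13-fold and 5.63-fold higher, although the test of its counts did not pass there. The difference between hypothalamus and hippocampus was -1.57 on HFHS and -2.18 on SC (exact permutation tests, adjusted p = 0.00699 each). Hypothalamus and cortex, between which the counts of Gfap differed on SC, differed by 0.47 on HFHS (adjusted p = 0.410) and 0.31 on SC (adjusted p = 0.695) on this relative scale, and neither exact test passed. All 18 astrocyte markers were lower in hippocampus than in cortex on SC with edgeR, with a median log2 fold change of -2.30, and 16 of 18 were lower in hypothalamus than in cortex, with a median of -2.32. On HFHS, 18 of 18 were lower in hippocampus than in cortex, with a median of -2.12. In hypothalamus only 6 of 18 were lower than in cortex on HFHS, with a median of -0.823.

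Vim, Synm and Nes had higher means relative to astrocyte markers in hypothalamus and hippocampus than in cortex. Vim exceeded cortex by 3.05 in hypothalamus HFHS, 3.38 in hypothalamus SC, 3.22 in hippocampus HFHS and 2.82 in hippocampus SC (exact permutation tests, adjusted p of 0.00699, 0.00699, 0.00699 and 0.0260). The differences from cortex for Synm were 2.49, 3.68, 2.96 and 3.56 in the same order (adjusted p = 0.00699 each), and no pair of groups overlapped. For Nes they were 2.39, 2.97, 3.28 and 2.91, of which the last did not pass (exact permutation tests, adjusted p of 0.0260, 0.0120, 0.00699 and 0.0731). The Nes difference between hypothalamus and cortex on HFHS no longer passed when any 1 of the 6 cortex HFHS libraries was left out (2.14 to 2.54, adjusted p of 0.0571 to 0.0731), and that between hippocampus and cortex on SC passed without hippocampus SC 2 (3.50, adjusted p = 0.0321). Between hypothalamus and hippocampus, none of the 3 genes passed on either diet, with differences from -0.89 for Nes on HFHS to 0.57 for Vim on SC. In all, 15 of 24 region tests and 0 of 12 diet tests passed, adjusted over these 36 tests. The share of all genes passing such a ratio test was not computed. The median astrocyte marker was lower outside cortex on both diets, as given above, so a gene with equal counts in both regions has a higher ratio outside cortex. Vim in hippocampus against cortex on SC had a log2 fold change of 0.04 in its counts and a ratio difference of 2.82.

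Markers of other cells also differed between the regions, not all of them in the direction of these ratios. The summed TPM of 10 ependymal markers, genes of the ciliated cells that line the ventricles and also make vimentin, had medians of 4790 in hypothalamus HFHS, 5870 in hypothalamus SC, 2090 in hippocampus HFHS, 1600 in hippocampus SC, 209 in cortex HFHS and 199 in cortex SC. With edgeR on SC, 10 of 10 ependymal markers were higher in hypothalamus than in cortex and 9 of 10 in hippocampus than in cortex. Oligodendrocyte precursor markers (7 genes) had medians of 54.2 in hypothalamus HFHS, 275 in hypothalamus SC, 26.8 in hippocampus HFHS, 44.6 in hippocampus SC, 8.88 in cortex HFHS and 9.16 in cortex SC. On SC, 7 of 7 were higher in hypothalamus than in cortex and 6 of 7 in hippocampus than in cortex. Choroid plexus markers (6 genes) had medians of 866 in hypothalamus HFHS, 109 in hypothalamus SC, 11100 in hippocampus HFHS, 14300 in hippocampus SC, 376 in cortex HFHS and 570 in cortex SC. On SC, 4 of them were higher in hippocampus than in cortex, while in hypothalamus 0 were higher and 3 lower. Tanycyte markers (9 genes) had medians of 242 in hypothalamus HFHS, 158 in hypothalamus SC, 93.1 in hippocampus HFHS, 97.8 in hippocampus SC, 187 in cortex HFHS and 282 in cortex SC. On SC, 5 of them were higher and 3 lower in hypothalamus than in cortex, and 1 was higher and 4 lower in hippocampus. On SC, 0 of 10 endothelial markers were higher and 3 lower in hypothalamus than in cortex (median log2 fold change -1.51). In hippocampus 0 of them were called (median -1). Mural markers gave 3 higher and 2 lower in hypothalamus, and 3 higher in hippocampus. Of 5 fibroblast markers 4 and 1 were higher, and of 10 oligodendrocyte markers 4 and 7, in the same order. Neuron markers gave 1 higher and 4 lower, then 0 higher and 6 lower, and no microglia marker was called. The part of these cells in the levels of Vim, Nes and Synm was not tested.

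**Figure D4:**
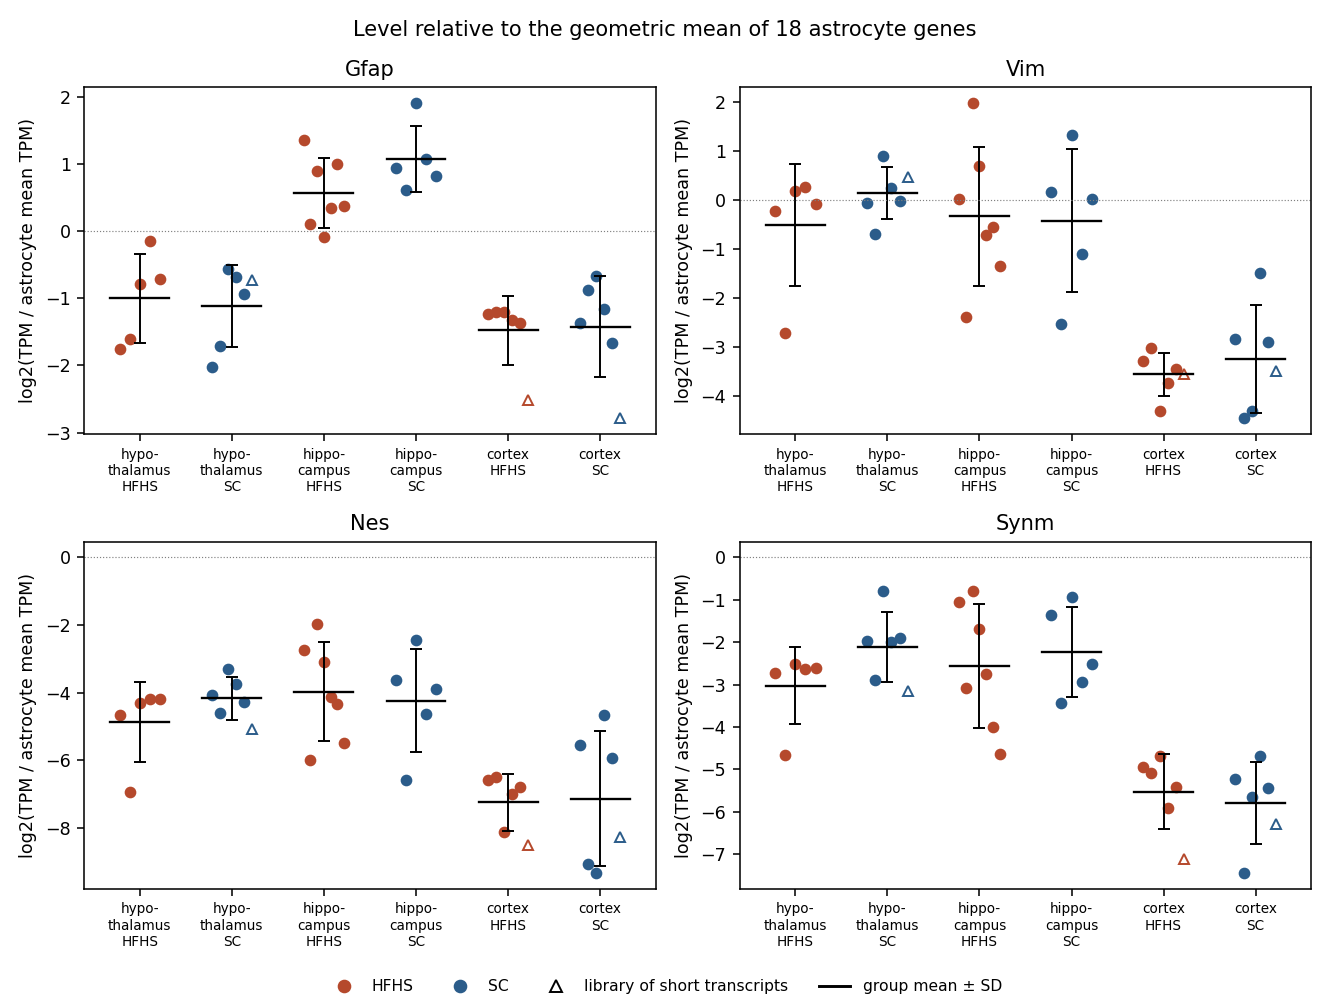
Log2 of the TPM of each gene over the geometric mean TPM of 18 astrocyte markers in the same library, by region and diet, with the mean ± SD. Gfap is above the cortex libraries in hippocampus only, at means of 0.57 on HFHS and 1.07 on SC, while the means of Vim and Synm are above those of cortex in both other regions.

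The spread of these ratios from library to library was smallest for Gfap in 4 of 6 groups and for Vim in the others. In hippocampus, where the astrocyte sum ran from 2000 to 12300 on HFHS and from 1990 to 11500 on SC, the log2 ratio of Gfap had an SD of 0.52 on HFHS and 0.50 on SC. The SD of the Vim ratio was 1.41 and 1.46 there, that of Nes 1.47 and 1.53, and that of Synm 1.46 and 1.06, on HFHS and SC in turn. In hypothalamus SC the SD was 0.61 for Gfap, 0.53 for Vim, 0.63 for Nes and 0.83 for Synm. In cortex HFHS it was 0.51 for Gfap and 0.435 for Vim. These SDs are descriptions, with no test.

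Alpha was the main Gfap form in all 35 libraries, and delta was the minor form. Alpha averaged 80.6% and delta 19.1% of Gfap TPM over all libraries, and the third transcript, which carries no reading frame, 0.323%. The delta share in hippocampus HFHS was 13.3% to 33.7% with a median of 23.8%, against 14.1%, 18.9%, 11.3%, 18.4% and 13.4% in the 5 hippocampus SC libraries. Of the 7 hippocampus HFHS libraries 5 lay above the highest hippocampus SC library, and the groups overlapped. The means were 23.7% ± 8.02 (SD, n = 7) on HFHS and 15.2% ± 3.29 (n = 5) on SC, a difference of 8.44 percentage points (exact two-sided permutation test, p = 0.0543, adjusted p = 0.489 over 9 comparisons).

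In hypothalamus the delta share was 17.4%, 18.5%, 17.5%, 11.2% and 24% on HFHS, against 13.4% to 18.7% with a median of 15.1% on SC. The difference of the means was 1.93 points (exact permutation test, adjusted p = 0.571). In cortex it was 15.3% to 36.6% with a median of 19.5% on HFHS, against 13.9% to 31.0% with a median of 15.1% on SC, a difference of 3.20 points (adjusted p = 0.571). The highest cortex values in both groups, 36.6% on HFHS and 31.0% on SC, came from the 2 cortex libraries of short transcripts. No pair of regions passed on either diet, with differences between -5.95 points for hypothalamus against hippocampus on HFHS and 1.80 points for hippocampus against cortex on HFHS (exact permutation tests, adjusted p of 0.571 and 0.738). In absolute level, delta was at 44.9 ± 30.0 TPM in hippocampus HFHS and 45.4 ± 35.8 TPM in hippocampus SC, and alpha at 165 ± 124 TPM and 226 ± 129 TPM.

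The split among the Nes transcripts varied widely between libraries. Nes-201 averaged 46.3%, Nes-203 31.4% and Nes-202, a transcript that keeps an intron, 22.3% of Nes TPM. The Nes-201 share was 13.3% to 38.6% with a median of 28.3% in hippocampus HFHS, against 29.3% to 100% with a median of 53.2% in cortex HFHS. These means differed by -30.4 points, the only one of 27 comparisons of the main transcripts of Vim, Nes and Synm that passed (exact permutation test, adjusted p = 0.0420 over the 9 of the gene). It did not pass when any of 11 of the 13 libraries was left out (adjusted p of 0.0584 to 0.0779), or with estimated counts in place of TPM (-25.5 points, adjusted p = 0.0896). In hypothalamus the share was 34.1%, 58.8%, 84.5%, 31.6% and 14.6% on HFHS, against 55.7% to 89.0% with a median of 71.9% on SC, and the groups overlapped (exact permutation test, p = 0.0541, adjusted p = 0.0974). That difference of -27.5 points passed without hypothalamus HFHS 3, the library at 84.5% (-37.4 points, adjusted p = 0.0429). On SC, the difference of hypothalamus from hippocampus was 24.6 points (exact permutation test, adjusted p = 0.0925) and passed without hippocampus SC 2 (31.8 points, adjusted p = 0.0429). The difference of hypothalamus from cortex on SC was 39.1 points (exact permutation test, adjusted p = 0.0779) and passed without cortex SC 6 (49.3 points, adjusted p = 0.0195). In hippocampus the means were 26.6% ± 9.86 on HFHS and 47.6% ± 19.99 on SC (exact permutation test, p = 0.0328, adjusted p = 0.0925).

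Vim-201 held 83.6% of Vim TPM on average, and the short retained-intron transcript Vim-203, of 535 bases, 15.3%. In estimated counts, Vim-203 averaged only 171 per library, against 6721 for Vim-201, and 52 of its bases are absent from Vim-201. The Vim-203 share was 0% in hippocampus HFHS 5 and cortex HFHS 3. The group means of the Vim-201 share lay between 78.3% ± 11.3 in cortex HFHS and 86.4% ± 6.23 in hippocampus SC. Synm TPM was divided over Synm-203 (34.8%), Synm-201 (31.6%), Synm-205 (17.6%) and Synm-202 (15.3%), all of them coding. Synm-202 keeps a stretch that Synm-201 removes by splicing, and 914 of its 7818 bases are absent from Synm-201. Synm-203 starts later than these and has 66 of 3388 bases that are absent from Synm-201, which leaves few reads to separate it. All 2697 bases of Synm-205 lie in Synm-201, so it has no base of its own. The Synm-205 share was 50.8% in cortex SC 6 and 0% in several libraries, among them cortex HFHS 3, 4 and 5. None of the 9 comparisons of Vim-201 and none of the 9 of Synm-203 passed (lowest exact permutation p of 0.214 for Vim-201 and 0.0568 for Synm-203, both between diets).

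**Figure D5:**
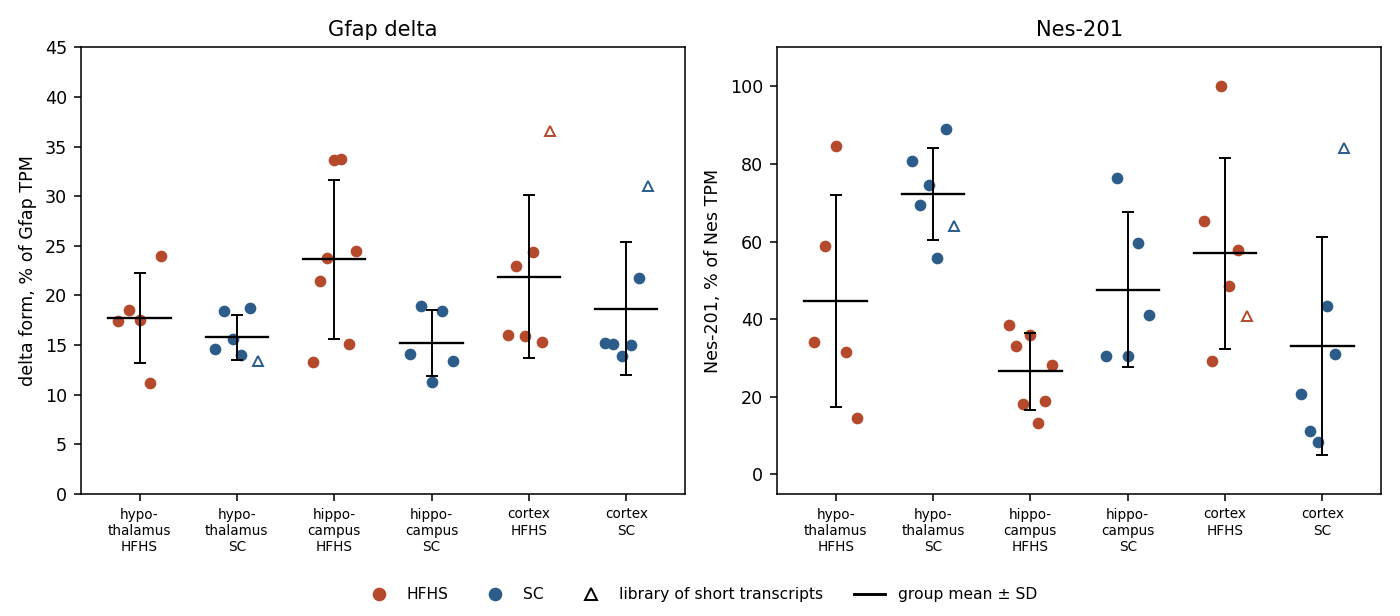
Share of the delta transcript in Gfap TPM and of Nes-201 in Nes TPM, in percent, for each library by region and diet, with the mean ± SD and the 3 libraries of short transcripts as open triangles. Delta stays between 11.2% and 36.6% in all libraries, and Nes-201 runs from 8.37% to 100%.

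Of 17 other intermediate filament genes listed, 15 were tested between regions, where 36.1% of all genes were called between hypothalamus and cortex and 30.8% between hippocampus and cortex on SC. Between hypothalamus and cortex on SC 6 were higher and 2 lower with edgeR (median log2 fold change 0.31, against 0.06 over all genes), and between hippocampus and cortex 5 were higher and 3 lower (0.37, against 0.04). On the log2 fold change scale, Krt8, a keratin of simple epithelia, was higher by 3.47 ± 0.63 in hypothalamus (24.7 ± 7.71 TPM, against 1.75 ± 1.73 TPM in cortex) and by 3.80 ± 0.65 in hippocampus. Its partner Krt18 was higher in hippocampus by 3.74 ± 0.70, with 75.9 ± 53.5 TPM, against 4.55 ± 4.36 TPM in cortex. Nefl, the light neurofilament chain of axons, was lower, with a log2 fold change of -2.31 ± 0.40 in hypothalamus and -2.83 ± 0.44 in hippocampus, with 21.3 ± 10.5 TPM and 14.8 ± 2.64 TPM, against 83.2 ± 46.3 TPM in cortex. Bfsp2, a lens filament gene, was the only one called between hypothalamus and hippocampus on SC, with 71.7 ± 42.2 TPM in hypothalamus and 196 ± 78.1 TPM in hippocampus (-1.54 ± 0.45, adjusted p = 0.0247). The diet changed 0 of the tested genes of the list in any region, and 0 had an unadjusted p under 0.05.

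Of 24 genes of filament linkers, chaperones, kinases and proteases, 5 were higher and 3 lower in hypothalamus than in cortex on SC with edgeR, and 6 higher and 3 lower in hippocampus than in cortex. The medians were 0.34 and 0.33, against 0.06 and 0.04 over all genes, and the shares called stand beside the same 36.1% and 30.8% of all genes. Eppk1, a plakin linker, was higher on the log2 scale by 4.82 ± 0.83 in hypothalamus, with 0.994 ± 0.385 TPM, against 0.0236 ± 0.0220 TPM in cortex. Sync, syncoilin, an atypical filament protein, was higher by 3.25 ± 0.62, with 1.91 ± 0.50 TPM, against 0.151 ± 0.105 TPM in cortex. S100b, a calcium-binding protein that inhibits the assembly of Gfap, was lower in hippocampus than in cortex, with a log2 fold change of -1.69 ± 0.32, with 244 ± 58.7 TPM, against 508 ± 70.2 TPM. The calpain Capn2, a protease that cleaves filament proteins, was lower in hypothalamus, with a log2 fold change of -1.14 ± 0.23 and in hippocampus of -0.90 ± 0.24. No gene of the list was called between diets, and Dst, a giant linker, had the lowest p in cortex (0.70 ± 0.25, unadjusted p = 0.0155, adjusted p = 0.357).

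Of the 22 listed regulators of Gfap transcription, 7 were called between hypothalamus and cortex on SC with edgeR, where 36.1% of all genes were, and 7 between hippocampus and cortex, where 30.8% were. In hypothalamus 2 were higher and 5 lower (median -0.19, against 0.06 over all genes), and in hippocampus 1 was higher and 6 lower (-0.14, against 0.04). On HFHS 3 were higher and 4 lower in hypothalamus than in cortex, where 23.9% of all genes were called, and 1 higher and 9 lower in hippocampus than in cortex (24.2%). The balance of directions is a description, with no test. Cntfr, the receptor of ciliary neurotrophic factor, was lower, with a log2 fold change of -2.87 ± 0.38 in hypothalamus, with 37.9 ± 12.0 TPM, and -2.34 ± 0.40 in hippocampus, with 54.5 ± 25.0 TPM, against 206 ± 77.6 TPM in cortex. Hes5, a Notch target, was lower in hippocampus, with a log2 fold change of -3.20 ± 0.58, with 32.6 ± 23.97 TPM, against 198 ± 64.9 TPM in cortex. Socs3, the feedback inhibitor of Stat3 signalling, was higher on the log2 scale in hypothalamus by 3.98 ± 0.61, with 108 ± 47.0 TPM, against 5.79 ± 7.59 TPM in cortex. Hes1 was higher in hypothalamus than in hippocampus by 1.83 ± 0.49, with 93.4 ± 26.2 TPM, against 26.3 ± 13.1 TPM, and Sox9 by 0.91 ± 0.27. Of the 22 regulators 0 were called between diets, and Hes1 in cortex had the lowest p, with 12.0 ± 9.24 TPM on HFHS and 37.1 ± 12.3 TPM on SC (-1.67 ± 0.42, unadjusted p = 0.00152, adjusted p = 0.149).

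With the 6 group means removed, the genes most like each member in log2 CPM over the 35 libraries were different for each of the 4. For Gfap they were Apba2, an adaptor of synaptic proteins (Pearson r = 0.906, Spearman rho = 0.908), Csdc2, a cold shock domain protein (0.880 and 0.911), and Papss2, which makes the donor of sulfate groups (0.877 and 0.877). Vim was most like Tm4sf1 (0.933 and 0.904), S100a11 (0.906 and 0.873) and Anxa2 (0.899 and 0.878). Nes was most like Uaca (0.937 and 0.841), Akap2 (0.931 and 0.844) and Cp, the copper oxidase ceruloplasmin (0.920 and 0.841). For Synm they were Ezh1, a histone methyltransferase (0.887 and 0.789), Rgs3 (0.864 and 0.807) and Cttnbp2nl (0.859 and 0.794). Among the members, Vim and Nes had r = 0.786 and rho = 0.709, Nes and Synm r = 0.423, Vim and Synm r = 0.112, and Gfap had r between -0.127 and 0.051 with the other three. These values are descriptions over libraries that share group, depth and makeup, chosen as the highest of 9804 genes.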

How the data were processed

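Transcript abundances of ACSA2-sorted cells from hypothalamus, hippocampus and cortex were used as deposited. Per the submitters' processing notes, the authors used FastQC and Salmon with GRCm38. Tool versions were not given in the sources used here. The kit, SMART-Seq v4, does not mark strand, so antisense reads cannot be told apart. The deposited columns used were Salmon's estimated counts and TPM. Of 140948 transcripts, 139852 matched GENCODE mouse release M21 (GRCm38), 495 of them under another version number, and were summed to 54119 genes. The 1096 others held 0.214% to 0.535% of counts. Gene sums of estimated counts were rounded and tested with edgeR 4.0.16 in R 4.3.3 (filterByExpr, TMM, robust quasi-likelihood), with Benjamini-Hochberg adjustment over all genes and a threshold of 0.05. Diet was fitted within each region, and regions and interactions over all 6 groups. Shares and log2 ratios were tested with exact two-sided permutation tests, adjusted over 9 comparisons per transcript and over 36 ratios. limma 3.58.1 and DESeq2 1.42.0 gave alternatives. Scripts were tested on simulated data. Beside the members, up to 3 genes per list and comparison with the smallest p were named, and of correlated genes the 3 with the highest Pearson r. Members, lists and tests were chosen with earlier results of these data known. Replicates are pools of 2 mice, and p-values measure the spread between pools. One transcript sequence is not reported here.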

Additional observations from a re-analysis of the deposited data

Results flagged for a closer look

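Among 72 groups of 5 to 7 libraries checked with Dixon's criterion, 6 held a library far from the others, where chance gives about 1 in 20. Cortex HFHS 6, a library of short transcripts, had 54.5 TPM of Gfap, while the other 5 of its group had 181 to 247 TPM. Its log2 ratio of Gfap to astrocyte markers was -2.51, with the others between -1.36 and -1.21. Cortex SC 6, also a library of short transcripts, had a Synm-203 share of 0%, with 36.1% to 49% in the others. Hypothalamus HFHS 2, the library with the high astrocyte sum, had the lowest log2 ratio to astrocyte markers for 3 genes. It was -2.71 for Vim (others -0.222 to 0.261), -6.95 for Nes (others -4.65 to -4.19) and -4.65 for Synm (others -2.73 to -2.51). Without that library, the diet value of Gfap in hypothalamus was 0.54, as given above.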

How the results depend on the processing

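Over the other settings, the counts of members called were 0 between diets and 0 for interactions throughout, also with each library left out. For regions on SC 5 were called, 3 on log2(TPM + 0.1), 4 on log2(TPM + 1) and without the short-transcript libraries, 6 with DESeq2 and with another set of groups, and 4 to 5 with a library left out. Of all genes, log2(TPM + 1) called 8810 between hypothalamus and cortex, 7237 between hippocampus and cortex and 2865 between hypothalamus and hippocampus on SC. The main fit called 7782, 6636 and 2157. Genes called under the other settings were not counted, so those member counts stand without a background. For regions on HFHS 3 were called, 2 to 3 with a library left out. Ratio tests past the threshold numbered 15, and 14 to 16 with a library left out. Delta share tests stayed at 0. Main transcript shares gave 1 call, 0 by estimated counts, 2 without the 3 libraries of short transcripts and 0 to 2 with a library left out. These transcript settings were chosen after seeing the data.

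Single calls also changed. Gfap in hypothalamus against cortex on SC was -1.25 on log2(TPM + 0.1) (limma adjusted p = 0.0642), and against hippocampus -1.67 (adjusted p = 0.0559). Vim in hypothalamus against hippocampus on SC passed with DESeq2 (adjusted p = 0.0326) and with only both groups fitted (0.99, edgeR adjusted p = 0.00904). Without the short-transcript libraries, the Nes ratio of hypothalamus to cortex on HFHS was 2.14 (exact permutation test, adjusted p = 0.0762) and the Nes-201 share difference of hypothalamus from cortex on SC passed (50.9 points, exact permutation test, adjusted p = 0.0357). By log2 CPM the Nes ratio of hippocampus to cortex on SC passed (2.96, exact permutation test, adjusted p = 0.0487).

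Same-numbered libraries correlated over 0.1 in 5 of 6 pairs between cortex diets, 4 of 5 in hippocampus and 1 of 5 in hypothalamus, with the own number the best match in 4, 3 and 1 of them. Between regions it was at most 3 of 5. Since no set of pairs was over 0.1 throughout and the labels name no shared origin, the numbers were not taken as pairs, though in cortex and hippocampus most correlated. With the replicate number as a block, 0 members were called between diets, 6 for regions on SC, 3 on HFHS and 0 interactions. Under the block Synm passed in hypothalamus against hippocampus on SC (0.71, edgeR adjusted p = 0.0379) and in hippocampus against cortex on HFHS (0.72, adjusted p = 0.0103), and Vim in hippocampus against cortex on HFHS did not (0.88, adjusted p = 0.0712). The block turned Vim between diets to 0.10 in hypothalamus and -0.04 in hippocampus, Synm to 0.14 in hippocampus, Nes to 0.09 in cortex, Gfap in hippocampus against cortex on HFHS to -0.50 and Nes in hypothalamus against hippocampus on HFHS to -0.01.

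The other reversals were of values that passed no test. Vim between diets in hypothalamus was 0.01 with DESeq2, RLE size factors or no filter, 0.00 over another set of groups and 0.10 without the short-transcript libraries. Gfap in hippocampus against cortex on HFHS was -0.01 with DESeq2 and RLE, -0.09 on both TPM scales and -0.13 without those libraries. On SC it was 0.41 on log2(TPM + 1) and 0.42 on log2(TPM + 0.1), and Nes was 0.46 and 0.78. Without those libraries, Vim in hippocampus against cortex on SC was -0.08, the delta share of hypothalamus against cortex on SC 0.0633 points and the Gfap ratio there -0.04. With 4 astrocyte genes, the Vim ratio of hypothalamus to hippocampus on HFHS was 0.22. The median of all genes on log2(TPM + 1) moved by 0.303 for hypothalamus and 0.23 for hippocampus against cortex on SC.

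With a library left out, these ranges crossed 0: the delta share of hypothalamus against hippocampus on SC (-0.417 to 1.49 points), Gfap (-0.52 to 0.07) and Synm (-0.20 to 0.03) between diets in hippocampus, Vim in hypothalamus (-0.08 to 0.12) and Nes in cortex (-0.62 to 0.13). Hippocampus against cortex did so for Gfap on HFHS (-0.20 to 0.19) and on SC (-0.48 to 0.14), Nes on SC (-0.44 to 0.31) and Vim on SC (-0.12 to 0.48). Ratios of hypothalamus to hippocampus did so for Nes (-0.53 to 0.51) and Synm (-0.18 to 0.44) on SC and Vim on HFHS (-0.52 to 0.37). The cause of these changes was not tested. Nes had the lowest median estimated counts of the members in every group, down to 937 in cortex SC.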
